A study of Mus musculus with 45 samples.

Results

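Genes that move bile acids and sterols across membranes were examined in mouse colonic epithelium, the sheet of cells facing the gut lumen. The set had 10 genes, taken from the RNA-seq count table by their symbols alone: Slc10a2, Fabp6, Slc51a, Slc51b, Abcc3, Npc1l1, Abcg5, Abcg8, Abca1 and Abcg1. The table held 24918 gene entries, of which 12961 had enough counts to be tested, and all 10 genes were among these. The mice were male C57BL/6 mice (C57BL/6J in the methods of the study), 6 weeks old when the diets began, with no transgene or deletion named in the labels. Control mice ate a low-fat diet (10% fat) for 20 weeks and obese mice a high-fat diet (60% fat) for 20 weeks. Formerly obese mice had 15 weeks of high-fat feeding before 5 weeks of low-fat feeding. Each group had 5 mice and 1 RNA library per mouse, so every p-value below rests on the spread between mice. For single genes the main fit estimated that spread from all 15 libraries, so the third group also enters each comparison. Epithelium was taken from the entire colon with EDTA, which leaves cells of the near and far colon mixed in each library.

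Libraries held 15230391 to 16718408 gene counts among control mice, 15591904 to 16749096 among obese mice and 16114562 to 22762095 among formerly obese mice. Levels are given as CPM, which are counts relative to library size after TMM scaling for composition. A gene is called changed when its fold change was over 1.2, its p-value under 0.01 and its adjusted p under 0.25, the cutoffs of the study. Differences are on the log2 scale with the standard error (SE) of the edgeR fit. All p-values for single genes are from edgeR's quasi-likelihood test with Benjamini-Hochberg adjustment over the 12961 genes. The comparisons of obese and of formerly obese mice with control mice share the control libraries, and each of these groups also enters the comparison between them.

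Bile acids are made from cholesterol in the liver and reach the gut in bile. Most are taken back from the lumen in the terminal ileum by the sodium-dependent carrier SLC10A2, bound inside the cell by FABP6, and passed to the blood by the heterodimer of SLC51A and SLC51B. ABCC3 offers a second route across the basolateral membrane. Cholesterol enters enterocytes through NPC1L1, is pumped back to the lumen by the heterodimer of ABCG5 and ABCG8, and leaves towards lipoproteins through ABCA1 and ABCG1. The bile acid receptor FXR, encoded by Nr1h4, is known to induce Fabp6, Slc51a and Slc51b, and the oxysterol receptors LXR, encoded by Nr1h3 and Nr1h2, are known to induce Abca1, Abcg1, Abcg5 and Abcg8.

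In obese against control mice, 2 of the 10 genes were called higher, Fabp6 and Slc51a, and 0 were called lower. Over all tested genes, 1.58% were called in this comparison, with 0.718% higher and 0.864% lower. In formerly obese against control mice, 2 genes were called higher, Slc10a2 and Slc51b, and 0 lower, where 3.72% of all genes were called, 1.85% higher and 1.87% lower. In formerly obese against obese mice, Abcc3 alone was called higher and 0 were called lower, against 2.65% of all genes, 1.23% higher and 1.42% lower. By edgeR, 5, 7 and 3 of the 10 genes had an unadjusted p under 0.05 in the 3 comparisons in this order, and 0, 1 and 0 had an adjusted p under 0.05. DESeq2 called 3, 3 and 1 under the same cutoffs. The median log2 fold change of the 10 genes was 0.07, 0.29 and 0.09, beside medians of 0, -0.001 and 0.002 over all tested genes. The 5 genes called by edgeR all belong to bile acid handling. Of the 5 sterol transporters edgeR called 0 with all libraries in the fit, while DESeq2 called Abcg5 lower in both comparisons with control mice.

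**Figure D1:**
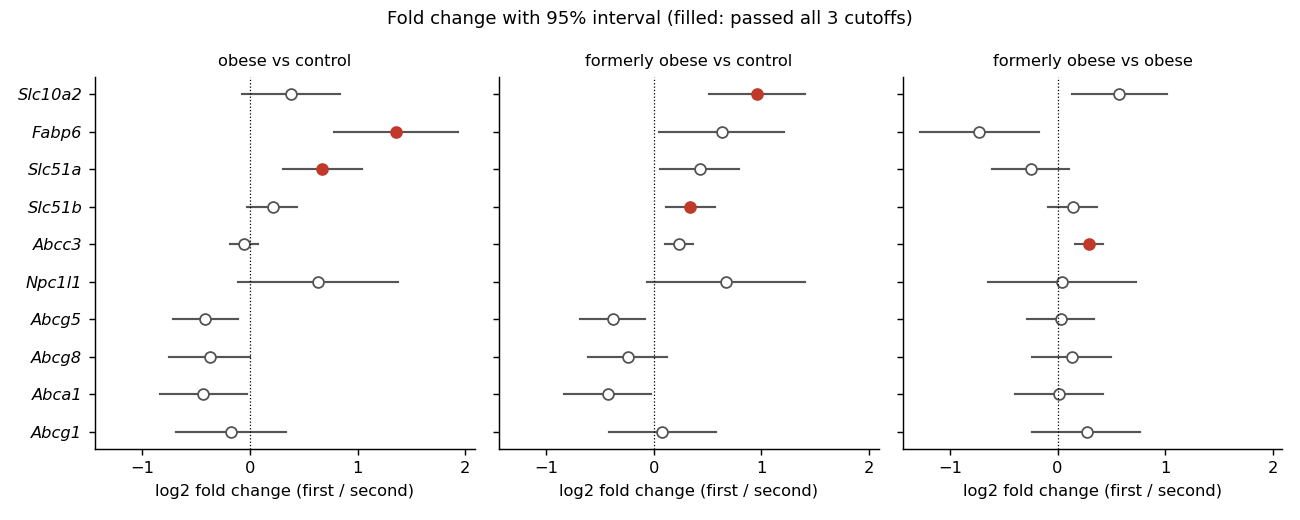
Log2 fold change (horizontal axis) of the 10 transporter genes (rows) in 3 comparisons, the first-named group over the second. Points are estimates of the edgeR fit, lines are 95% intervals, and filled points passed all 3 cutoffs. Fabp6 at 1.36 in obese mice and Slc10a2 at 0.96 in formerly obese mice lie farthest from 0, and the 3 sterol genes Abcg5, Abcg8 and Abca1 lie below 0 in both comparisons with control mice.

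Slc10a2 encodes the apical sodium-dependent bile acid carrier and lies on mm10 chromosome 8, 5085623 to 5105232, on the minus strand. The start site of its RefSeq transcript has an inverted repeat of the kind that HNF1 factors bind, spelled TTAATNATTAA and the same on both strands, 223 bases upstream. This motif was found in 0.122% of 32851 RefSeq promoters (250 bases before to 50 after the start, GRCm38.p6) and in no other of the set's 9 promoters. It was chosen with these promoters in view, as were the motifs of the genes below, so the matches are descriptions only. The 250 bases upstream of the start (chr8:5105288-5105537, minus strand) are shown because Slc10a2 had the clearest difference between formerly obese and control mice, with the repeat in capitals.
Slc10a2 upstream: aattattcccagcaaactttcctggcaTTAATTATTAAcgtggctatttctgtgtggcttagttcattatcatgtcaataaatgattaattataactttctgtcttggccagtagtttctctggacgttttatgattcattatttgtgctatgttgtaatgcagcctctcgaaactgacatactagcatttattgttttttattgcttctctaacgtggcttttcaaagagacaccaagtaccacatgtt
Control mice had 45.8, 20.8, 57.2, 46.4 and 35.2 CPM of Slc10a2 in replicates 1 to 5. Obese mice had 37.2, 41.4, 74.3, 49.96 and 65.1 CPM, and formerly obese mice had 65.1, 73.4, 86.9, 87.2 and 86.4 CPM. All 5 formerly obese libraries lay above all 5 control libraries, which held for 3.62% of all tested genes in either direction, while the obese libraries overlapped both other groups. The mean rose from 41.1 ± 13.8 CPM in control to 79.8 ± 10.0 CPM in formerly obese mice (SD, n = 5), a log2 fold change of 0.96 (SE 0.21, adjusted p = 0.0289). Leaving out any 1 library kept this call, with log2 values from 0.79 to 1.1. Obese mice stood between at 53.6 ± 15.7 CPM, with a log2 difference from control mice of 0.38 (95% interval -0.07 to 0.84, adjusted p = 0.537) that was not called. The step from obese to formerly obese mice was 0.57 (SE 0.21, adjusted p = 0.232), and its unadjusted p of 0.0142 missed the cutoff. The summed level of small intestine markers, given with the other marker lists, also lay above all control mice in the 5 formerly obese mice, and its part in this difference was not tested. Because these are bulk libraries, more cells that carry a transcript and more transcript per cell cannot be told apart, here and for each gene below.

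**Figure D2:**
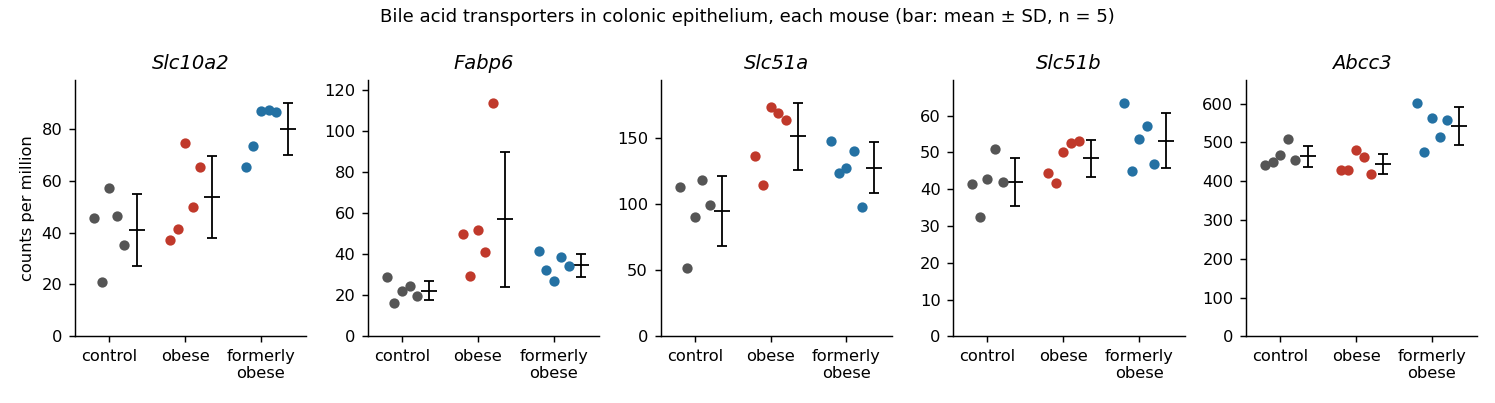
CPM (vertical axis, linear from 0, one scale per gene) of the 5 bile acid genes in each mouse, with control mice in grey, obese in red and formerly obese in blue. Points are the 5 mice of a group in replicate order and black bars the mean ± SD. For Slc10a2 the 5 formerly obese mice, at 65.1 to 87.2 CPM, all lie above the 5 control mice, and 1 obese mouse stands far above the others for Fabp6 at 113.7 CPM.

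Fabp6 encodes the ileal bile acid binding protein and lies on chromosome 11, 43596040 to 43601562, minus strand. Its promoter held an inverted repeat of 2 nuclear receptor core motifs separated by 1 base, spelled AGGTNANTNACCT and the same on both strands, the arrangement known to bind FXR. The match lay 142 bases upstream of the start. It was found in 0.0213% of all promoters, 7 of 32851, and in no other promoter of the set. As its spelling was chosen with the promoters in view, this share is no test of the match. The 180 upstream bases (chr11:43601563-43601742, minus strand) are shown because Fabp6 had the largest change of the set in obese mice, with the match in capitals.
Fabp6 upstream: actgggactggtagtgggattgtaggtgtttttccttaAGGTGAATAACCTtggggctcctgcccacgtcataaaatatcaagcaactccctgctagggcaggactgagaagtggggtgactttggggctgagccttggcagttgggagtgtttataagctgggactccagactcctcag
In control mice Fabp6 was at 28.7, 16.2, 22.1, 24.6 and 19.9 CPM. In obese mice it was at 49.7, 29.3, 51.9, 41.1 and 113.7 CPM, and in formerly obese mice at 41.4, 32.2, 26.8, 38.8 and 34.1 CPM. The lowest obese mouse, at 29.3 CPM, lay just above the highest control mouse, at 28.7 CPM, so the groups did not overlap, which held for 2.47% of all tested genes. Formerly obese mice overlapped both groups. The mean was 22.3 ± 4.74 CPM in control and 57.1 ± 32.9 CPM in obese mice (SD, n = 5), a log2 fold change of 1.36 (SE 0.27, adjusted p = 0.0678). Obese replicate 5 stood far above the other obese mice. Without it the fold change was 0.95 on the log2 scale and stayed called (adjusted p = 0.0668), and over all single libraries left out it ran from 0.95 to 1.52. Small intestine markers summed to 2275 to 2688 CPM in the obese mice, a range that overlapped the 1983 to 2440 CPM of control mice, and their part was not tested. Formerly obese mice had 34.6 ± 5.72 CPM, with a log2 difference from control mice of 0.63 (SE 0.27, adjusted p = 0.25), which missed the p cutoff and was called (0.64, adjusted p = 0.0625) when the 10 libraries of the 2 groups were fitted alone. Against obese mice their log2 difference was -0.73 (SE 0.26, adjusted p = 0.225), not called, and -0.31 without obese replicate 5.

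Slc51a and Slc51b encode the 2 chains of the organic solute transporter, which exports bile acids to the blood and works only as a pair. Slc51a lies on chromosome 16, 32475578 to 32487879, and Slc51b on chromosome 9, 65412753 to 65422773, both on the minus strand. Slc51a was at 113.1, 51.8, 90.5, 118.2 and 99.1 CPM in control mice. In obese mice it was at 136.4, 113.9, 173.1, 168.4 and 163.0 CPM, and in formerly obese mice at 147.7, 123.1, 127.4, 140.0 and 97.6 CPM. In obese mice 4 of 5 libraries lay above every control library, and the remaining 1, replicate 2, lay below control replicate 4 only. The mean rose from 94.5 ± 26.3 to 150.9 ± 25.1 CPM (SD, n = 5), a log2 fold change of 0.67 (SE 0.17, adjusted p = 0.142). The call was lost at a log2 fold change of 0.62 without obese replicate 3 (adjusted p = 0.345), 0.63 without replicate 4 (adjusted p = 0.278) and 0.64 without replicate 5 (adjusted p = 0.329). The fold change moved little in these fits, while calls over all genes fell from 205 to 40, 85 and 55. The adjusted p is taken over all tested genes, so it also moves with them. Formerly obese mice, at 127.2 ± 19.2 CPM, were 0.43 above control mice on the log2 scale (SE 0.17, adjusted p = 0.211), which was not called.

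Slc51b was at 41.3, 32.6, 42.7, 51.0 and 42.01 CPM in control mice. It was at 44.4, 41.6, 50.2, 52.5 and 53.1 CPM in obese mice and at 63.4, 45.1, 53.5, 57.3 and 46.7 CPM in formerly obese mice. The highest control mouse, replicate 4, lay inside the range of both other groups. The mean of formerly obese mice was 53.2 ± 7.56 CPM against 41.9 ± 6.55 CPM in control mice, a log2 fold change of 0.34 (SE 0.11, adjusted p = 0.114). This call was lost in 7 of the 10 fits that left out 1 library, at log2 values of 0.27 to 0.35, with the lowest value both without control replicate 2 and without formerly obese replicate 1. Those were the fits without control replicate 1, 2, 3 or 5 and without formerly obese replicate 1, 3 or 4. It was also lost when the 10 libraries of the 2 groups were fitted alone (log2 0.35, adjusted p = 0.179). Obese mice had 48.4 ± 5.12 CPM, 0.21 above control mice on the log2 scale (SE 0.11, adjusted p = 0.515). Slc51b overlaps Rasl12 on the opposite strand, and the strand setting of the authors' counting is not given in the sources used here, but Rasl12 had only 3 to 10 counts per library.

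The balance of the 2 chains was read from their ratio of counts within each library, which library size cannot change. Slc51a had 2.74, 1.59, 2.12, 2.32 and 2.36 counts for each Slc51b count in control mice. The ratio was 3.07, 2.74, 3.45, 3.21 and 3.07 in obese mice and 2.33, 2.73, 2.38, 2.44 and 2.09 in formerly obese mice. The obese mice lay above every mouse of the other 2 groups, narrowly, since the lowest obese ratio of 2.740 stood beside the highest of the control mice at 2.738 and of the formerly obese mice at 2.732. The mean log2 ratio was 0.50 higher in obese than control mice (exact two-sided permutation p = 0.00794, adjusted p = 0.0238 over 6 comparisons). It was 0.38 lower in formerly obese than obese mice, a difference of -0.38 (exact permutation p = 0.00794, adjusted p = 0.0238), and the smallest p that 5 against 5 mice allow is 0.0079. Formerly obese and control mice differed by 0.12 (exact permutation p = 0.444). Per kilobase of exon, the mean ratio was 0.703 for control mice, 0.982 for obese mice and 0.757 for formerly obese mice. Leaving out each mouse in turn gave 0.38 to 0.58 for obese against control mice and -0.43 to -0.33 for formerly obese against obese mice.

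**Figure D3:**
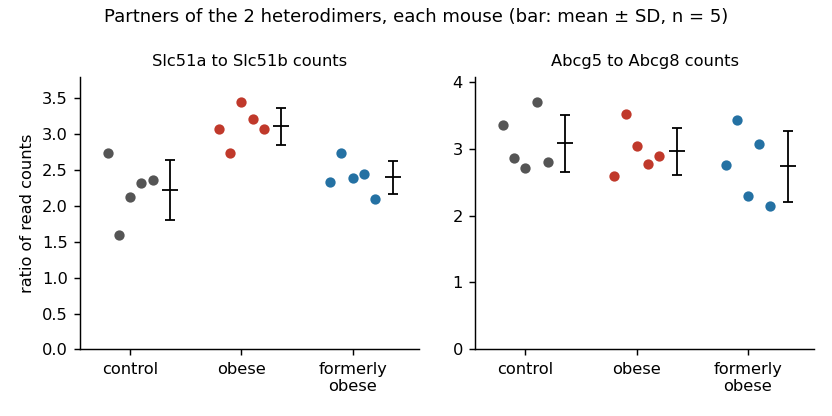
Ratio of read counts (vertical axis, linear from 0) of the 2 partner genes of each heterodimer in each mouse, control in grey, obese in red and formerly obese in blue, with the mean ± SD as black bars. The Slc51a to Slc51b ratio of obese mice, at 2.74 to 3.45, lies above that of the other groups, and the Abcg5 to Abcg8 ratios of the 3 groups overlap.

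Abcc3 encodes a multidrug resistance-associated protein that exports conjugated bile acids and other organic anions. It lies on chromosome 11, 94343295 to 94392976, minus strand. It had the highest CPM of the set, with 442.2, 449.3, 467.3, 509.0 and 453.6 CPM in control mice. Obese mice had 428.2, 429.3, 481.5, 462.9 and 419.1 CPM, and formerly obese mice had 601.6, 476.3, 563.4, 514.4 and 558.6 CPM. In formerly obese mice 4 of 5 libraries lay above all obese libraries, and replicate 2 lay below obese replicate 3. The mean was 542.9 ± 48.4 CPM in formerly obese and 444.2 ± 26.7 CPM in obese mice (SD, n = 5), a log2 fold change of 0.29 (SE 0.06, adjusted p = 0.0541). Without formerly obese replicate 1 the fold change fell to 0.25 on the log2 scale, under the fold cutoff, with an adjusted p of 0.0748. Against control mice, at 464.3 ± 26.6 CPM, formerly obese mice were 0.23 higher (SE 0.06, adjusted p = 0.0662), which passed both p cutoffs and missed the fold cutoff. Colonocyte markers were higher in formerly obese than obese mice as well (4 of 9 called), and their part was not tested. Obese and control mice differed by -0.06 (SE 0.06, adjusted p = 0.76), with a 95% interval from -0.19 to 0.07. The groups of none of the 10 genes were free of overlap between formerly obese and obese mice, against 3.38% of all tested genes without overlap.

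Abcg5 and Abcg8 encode the 2 chains of the pump that returns cholesterol and plant sterols to the lumen. They lie head to head on chromosome 17, Abcg5 at 84658234 to 84682923 on the minus strand and Abcg8 at 84676302 to 84700333 on the plus strand. The start of the Abcg5 transcript and the start shared by 3 of the 4 RefSeq transcripts of Abcg8 are 110 bases apart. The stretch between them (chr17:84683012-84683120, on the plus strand, shown because the genes share it) holds 2 matches to the GATA factor motif AGATAA, on either strand, in capitals. The motif was found in 11.2% of all promoters.
Abcg5 to Abcg8: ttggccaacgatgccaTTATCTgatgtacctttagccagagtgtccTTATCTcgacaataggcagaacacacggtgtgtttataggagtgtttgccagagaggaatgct
Abcg5 was at 25.2, 36.5, 24.7, 21.9 and 31.1 CPM in control mice. It was at 22.1, 18.7, 21.1, 18.5 and 23.9 CPM in obese mice and at 19.4, 28.1, 16.3, 23.7 and 19.5 CPM in formerly obese mice. In each of these groups 3 of 5 libraries lay below every control library. The mean was 27.9 ± 5.88 CPM in control, 20.9 ± 2.29 CPM in obese and 21.4 ± 4.57 CPM in formerly obese mice. The log2 differences from control mice were -0.42 in obese mice (SE 0.15, unadjusted p of 0.0107, adjusted p = 0.311) and -0.38 in formerly obese mice (SE 0.14, unadjusted p of 0.0162, adjusted p = 0.177), neither of them called by edgeR. DESeq2 called Abcg5 in both comparisons, at -0.42 (adjusted p = 0.18) and -0.38 (adjusted p = 0.122). The edgeR fit called it without control replicate 4, at -0.49 and -0.46, and, in formerly obese mice, also without formerly obese replicate 2, at -0.50. In obese mice it was called at -0.42 when the 10 libraries of the 2 groups were fitted alone.

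Abcg8 was lower in counts, with 7.54, 12.8, 9.12, 5.91 and 11.1 CPM in control mice, 8.55, 5.32, 6.96, 6.67 and 8.29 CPM in obese mice and 7.05, 8.21, 7.12, 7.73 and 9.10 CPM in formerly obese mice. The control mice had the widest spread, and both other groups lay almost wholly within it. The log2 differences from control mice were -0.37 (SE 0.18, adjusted p = 0.458) and -0.24 (SE 0.17, adjusted p = 0.511). Control replicate 2 had the highest level of both genes. Across the 15 libraries Abcg5 and Abcg8 had a Pearson correlation of 0.76, and of 0.72 after the group means were removed. The ratio of Abcg5 to Abcg8 counts was 2.71 to 3.70 in control, 2.59 to 3.52 in obese and 2.14 to 3.42 in formerly obese mice. Mean log2 ratios differed by -0.06, -0.18 and -0.13 in the 3 comparisons, with exact permutation p-values of 0.667, 0.278 and 0.389. The genes overlap on opposite strands, so reads of one could have been counted for the other if strand was not used.

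Abca1 encodes the pump that loads cholesterol onto apolipoprotein A-I. It lies on chromosome 4, 53030789 to 53159895, minus strand. A direct repeat of 2 nuclear receptor core motifs, spelled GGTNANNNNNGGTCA and searched on both strands, was found 67 bases upstream of its start and in 0.207% of all promoters. It is the arrangement known to bind LXR. In the 150 upstream bases (chr4:53159896-53160045, minus strand), shown because Abca1 is a standard target of that receptor and had the lowest log2 fold change of the set in both comparisons with control mice, the match is in capitals and reads on the opposite strand.
Abca1 upstream: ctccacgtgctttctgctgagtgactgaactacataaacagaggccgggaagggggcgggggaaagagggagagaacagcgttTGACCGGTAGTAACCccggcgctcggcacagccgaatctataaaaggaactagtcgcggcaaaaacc
Abca1 was at 24.0, 27.4, 25.2, 14.9 and 28.6 CPM in control mice. It was at 15.3, 20.5, 13.3, 24.6 and 14.8 CPM in obese mice and at 20.2, 17.0, 20.4, 20.0 and 11.5 CPM in formerly obese mice. Control replicate 4 stood apart from the other 4 control mice, at a level within both other groups. The mean was 24.0 ± 5.41, 17.7 ± 4.72 and 17.8 ± 3.80 CPM in the 3 groups. The log2 differences from control mice were -0.44 in obese (SE 0.19, adjusted p = 0.42) and -0.43 in formerly obese mice (SE 0.19, adjusted p = 0.264), not called. Without control replicate 4 both were called, at -0.57 (adjusted p = 0.169) and -0.56 (adjusted p = 0.077), and so was Abcg8 in obese mice at -0.50 (adjusted p = 0.18).

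Abcg1, which exports sterols to lipoprotein particles, lies on chromosome 17, 31057694 to 31117981, plus strand. It was at 2.69 to 4.61 CPM in control, 2.20 to 4.56 CPM in obese and 2.26 to 5.32 CPM in formerly obese mice. The 3 ranges overlapped, with log2 differences of -0.18 (95% interval -0.69 to 0.33), 0.08 (-0.42 to 0.58) and 0.27 (-0.24 to 0.77) in the 3 comparisons. Npc1l1, which takes cholesterol up from the lumen, lies on chromosome 11, 6211011 to 6230245, minus strand. It was the rarest of the set with 6 to 44 counts per library. Control mice had 0.685, 1.05, 0.372, 1.54 and 1.22 CPM, obese mice 1.70, 0.672, 1.71, 1.44 and 2.04 CPM, and formerly obese mice 0.990, 1.13, 1.56, 1.59 and 2.49 CPM. Its log2 differences from control mice were 0.63 (95% interval -0.11 to 1.38) and 0.67 (-0.06 to 1.41), so neither no change nor a change of over 1 log2 unit was outside the interval.

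**Figure D4:**
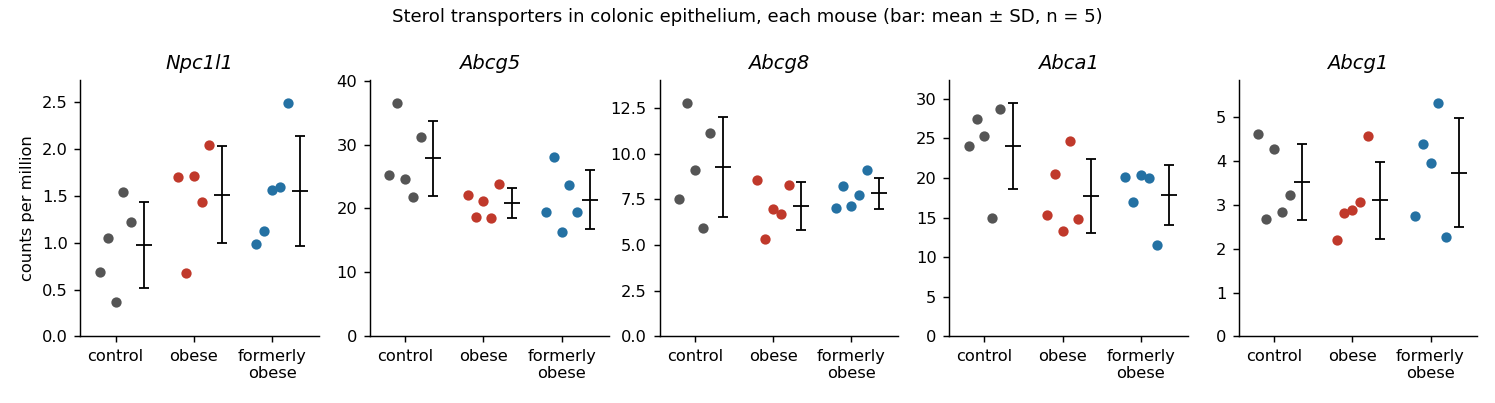
CPM (vertical axis, linear from 0, one scale per gene) of the 5 sterol genes in each mouse, control in grey, obese in red and formerly obese in blue, with the mean ± SD as black bars. In Abcg5, 3 of 5 obese and 3 of 5 formerly obese mice lie below the lowest control mouse at 21.9 CPM, while the groups of the other genes overlap more widely.

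Levels of different genes were compared as CPM per kilobase of exon, averaged over the 15 libraries. Slc51b stood at 98.0 ± 15.7 (SD over libraries), Abcc3 at 95.4 ± 10.8, Slc51a at 80.5 and Fabp6 at 74.6 CPM per kilobase, and these 4 bile acid genes had overlapping ranges. Slc10a2 followed at 14.2, then Abcg5 at 9.70, Abcg8 at 2.16, Abca1 at 1.89, Abcg1 at 0.593 and Npc1l1 at 0.288 CPM per kilobase. The ranges over libraries also overlapped between Slc10a2 and Abcg5, between Abcg8 and Abca1 and between Abcg1 and Npc1l1, so the order within these pairs is not separated by the spread. The highest library of Slc10a2, at 21.3, lay below the lowest of Fabp6, at 31.7 CPM per kilobase. Exon lengths were from RefSeq, where Slc10a2 spans from 5083219, while its entry in the count table spans from 5085623. Part of the exon length used may thus not have been counted, and its level per kilobase may be too low. Neither its gap to Fabp6 nor its place beside Abcg5 is therefore settled.

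Across the 15 libraries Slc10a2, Fabp6, Slc51a and Slc51b had positive Pearson correlations of log2 CPM in every pair, from 0.45 between Slc10a2 and Fabp6 to 0.80 between Slc51a and Slc51b. After the group means were removed these 2 pairs stood at 0.48 and 0.86. Abcc3 varied with some of them only, at 0.59 with Slc51b and 0.58 with Slc10a2 (0.59 and 0.24 within groups), 0.11 with Slc51a (0.31) and -0.13 with Fabp6 (-0.05). Abcg5 had negative correlations with the 2 chains of the organic solute transporter, at -0.65 with Slc51b and -0.63 with Slc51a, and of -0.49 and -0.38 within groups. With Fabp6 its correlation was -0.36 over all libraries and 0.12 within groups. Control replicate 2 had the lowest level of Slc10a2, Fabp6, Slc51a and Slc51b and the highest of Abcg5 and Abcg8 among the control mice. These correlations are descriptions over libraries that share their scaling.

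The genes most like each called gene across the 15 libraries were taken from 11027 genes with a mean of at least 50 counts. For Slc10a2 these were Xpo1 (r = 0.95), Pstpip2 (0.93) and Stk10 (0.93). For Fabp6 they were Ggt1 (0.88), Bglap3 (0.86) and Rnmtl1 (0.86), and Ggt1, a gamma-glutamyltransferase, had a log2 fold change of 0.91 in obese mice (adjusted p = 0.111). For Slc51a they were Fam78a (0.96), Enpep (0.95) and H2-Q2 (0.92), and for Slc51b they were 1810065E05Rik (0.94), Abca12 (0.93) and H2-T3 (0.92). For Abcc3 they were Ugt1a6a (0.94), Higd1a (0.94) and Prkaa1 (0.93). After the group means were removed, all of these correlations ran from 0.68 (Fabp6 with Rnmtl1) to 0.95 (Slc51a with Fam78a). Enpep, also in the list of small intestine markers below, was called higher in obese than control mice (log2 0.75, adjusted p = 0.143). Ugt1a6a, a glucuronosyltransferase, rose by 0.75 on the log2 scale from obese to formerly obese mice (adjusted p = 0.0623). Ugt1a6a shares exons with the other genes of its cluster, and H2-Q2 and H2-T3 have close paralogs, so their counts are uncertain.

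Other genes of the bile acid pathway were counted from a list of 24, of which 15 were tested. In obese mice 0 were called higher and 1 lower than in control mice. It was Abcc4, an exporter of bile acids and cyclic nucleotides, which fell from 21.7 ± 0.933 to 17.5 ± 0.329 CPM (log2 -0.31, SE 0.06, adjusted p = 0.0723). In formerly obese mice Abcc4 was lower too, at 17.7 ± 1.55 CPM (log2 -0.29, SE 0.06, adjusted p = 0.0268). The receptor gene Nr1h4 was the 1 called higher, from 114.1 ± 5.02 to 137.8 ± 9.36 CPM (log2 0.27, SE 0.06, adjusted p = 0.026). Between formerly obese and obese mice none of the 15 was called by edgeR, where 3 had an unadjusted p under 0.05, or by DESeq2. Those 3 were Vdr, the vitamin D receptor that also senses bile acids (log2 0.20, edgeR adjusted p = 0.114, under the fold cutoff), Nr1h4 (0.14, adjusted p = 0.285) and Abcb1a (0.24, adjusted p = 0.298). Fgf15, the ileal hormone that FXR induces, had 0 or 1 count in every library, and Nr0b2, another FXR target, had 0 to 5. The nuclear receptor gene Nr1i2 was at 131.1, 126.5 and 121.1 CPM in the order control, obese, formerly obese.

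Of 32 genes for sterol sensing and handling, 30 were tested. Called in obese mice were Lipa, the lysosomal lipase, higher by 0.29 (SE 0.09, adjusted p = 0.244), Mylip, which marks the LDL receptor for breakdown and is an LXR target, lower (log2 -0.39, SE 0.10, adjusted p = 0.142), and Soat1, which esterifies cholesterol, lower (log2 -0.29, SE 0.09, adjusted p = 0.209). In formerly obese mice Lipa (0.32, adjusted p = 0.079) and Mylip (-0.37, adjusted p = 0.0658) were called in the same directions, with Gramd1b, a sterol carrier at membrane contacts, higher by 0.32 (adjusted p = 0.0725). Vldlr, a lipoprotein receptor, was called higher in formerly obese than obese mice (0.33, adjusted p = 0.199). The LXR genes were at 26.7, 28.1 and 24.0 CPM for Nr1h3 and 84.7, 86.7 and 75.8 CPM for Nr1h2, in the same order of groups. The median log2 fold change of the 30 genes was 0.03, 0 and 0.01 in the 3 comparisons.

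Of 17 genes of neighbouring transporter families 12 were tested. Abca13 was called lower in obese mice (log2 -0.80, adjusted p = 0.193) and higher again in formerly obese mice (1.08 against obese, adjusted p = 0.0541), at 9 to 28 counts per library, and DESeq2 called neither of these differences. Formerly obese mice had more Abca12, a lipid pump (log2 1.08, adjusted p = 0.026), Abcg2, a pump for drugs and organic anions (0.38, adjusted p = 0.097) and Fabp2, the intestinal fatty acid binding protein (0.60, adjusted p = 0.12) than control mice. These are edgeR calls, and DESeq2 called 2 of the 12 genes in this comparison.

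Genes that mark the absorptive cells of the small intestine were counted next. Of 20 such markers 15 were tested, and 3 were called higher in obese and 7 in formerly obese than in control mice, 0 lower in either comparison. DESeq2 called 3 and 6 in these comparisons. Between formerly obese and obese mice 1 was called, Mep1b, higher by 0.31 (adjusted p = 0.133). Their summed level was 1983 to 2440 CPM in control, 2275 to 2688 CPM in obese and 2610 to 2905 CPM in formerly obese mice, the last wholly above the control mice. The largest parts of this sum were Mep1a, Apob, Fabp2, Slc5a1 and Mep1b, at means of 668.9, 503.4, 445.8, 334.4 and 207.9 CPM over all libraries. The sum mainly follows these genes, so it is not a measure of the amount of small intestinal cells. Of the list, Apoa1, Apoa4, Apoc3, Fabp1 and Lct, which small intestinal cells hold at high levels, were each under 1 CPM in every library (highest 0.735 CPM, for Apoa1). The defensin genes Defa17, Defa21, Defa22 and Defa24, listed for Paneth cells, were at 0 in all libraries, while Lyz1, another gene of that list, was at 0.291 to 4.42 CPM and was called higher in obese mice (log2 1.95, adjusted p = 0.0468). Of 5 Paneth genes tested, 1 was called lower in obese than control mice, Itln1 (log2 -1.11, adjusted p = 0.182). Between formerly obese and obese mice edgeR called 3 of the 5, Itln1 (log2 1.41, adjusted p = 0.0582) and Ang4 (1.16, adjusted p = 0.193) higher and Lyz1 lower (-1.81, adjusted p = 0.0468), while DESeq2 called 2. Between formerly obese and control mice 0 were called by edgeR or DESeq2, and 0 had an unadjusted edgeR p under 0.05. Correlations of log2 CPM with the summed level of the small intestine markers were 0.77 for Slc10a2, 0.45 for Fabp6, 0.61 for Slc51a, 0.82 for Slc51b and 0.70 for Abcc3 over 15 libraries, and 0.44, 0.19, 0.49, 0.70 and 0.74 within groups. The part of these markers in the differences was not tested.

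Posterior Hox genes, which mark position along the gut, were lower in formerly obese mice. Their summed level was 483.8 to 604.9 CPM in control, 423.4 to 548.8 CPM in obese and 350.7 to 454.6 CPM in formerly obese mice, and 6 of the 8 tested were called lower in formerly obese than control mice. In obese against control mice Hoxd12 alone was called (log2 -0.76, adjusted p = 0.184), and in formerly obese against obese mice Hoxd10 alone (-0.51, adjusted p = 0.197). Marker genes of mature colonocytes summed to 10760 to 17220, 11370 to 16780 and 14520 to 20280 CPM, with 3 of 9 called higher in formerly obese than control mice and 4 of 9 higher than in obese mice. In obese against control mice 1 of 9 was called, Slc20a1, lower (log2 -0.32, adjusted p = 0.182). Epithelial genes summed to 13680 to 16200 CPM over all libraries, and of 8 tested 0 were called by edgeR or DESeq2 in any comparison, with 1, 1 and 2 at an unadjusted p under 0.05. Of these, Krt18 passed both edgeR p cutoffs and missed the fold cutoff in obese against control mice (log2 -0.25, adjusted p = 0.105). It did so again in formerly obese against obese mice (0.22, adjusted p = 0.1), as did Vil1 in formerly obese against control mice (0.20, adjusted p = 0.0618). Immune cell markers summed to 61.1 to 91.2 CPM, fibroblast markers to 2.34 to 30.7 CPM, endothelial markers to 3.02 to 9.03 CPM, smooth muscle markers to at most 2.71 CPM and adipocyte markers to at most 0.170 CPM, and no tested gene of these lists was called by edgeR or DESeq2. At an unadjusted p under 0.05 were 1, 0 and 2 of 8 immune, 0, 2 and 0 of 4 fibroblast and 0, 0 and 1 of 1 endothelial genes in the 3 comparisons, and no muscle or adipocyte gene was tested. The part of position along the colon or of cell makeup in the changes of the transporter genes was not tested.

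**Figure D5:**
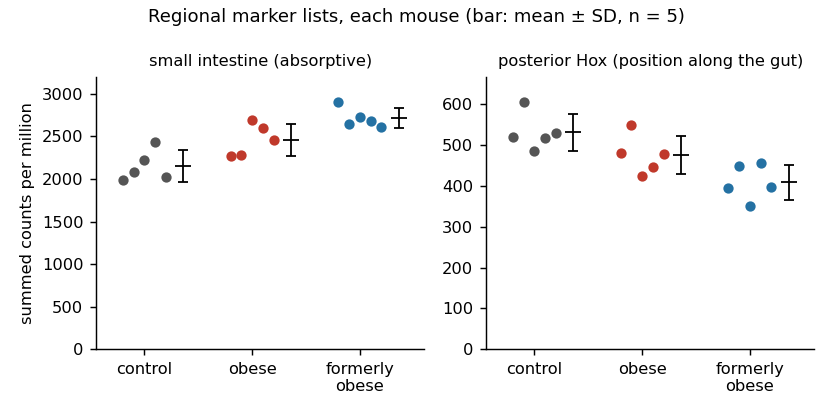
Summed CPM (vertical axis, linear from 0) of small intestine absorptive markers (left) and posterior Hox genes (right) in each mouse, control in grey, obese in red and formerly obese in blue, with the mean ± SD as black bars. The formerly obese mice lie at 2610 to 2905 CPM on the left, above all control mice, and at 350.7 to 454.6 CPM on the right, below all control mice.

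Whole-genome bisulfite sequencing gave a list of regions whose DNA methylation differed between obese and control mice (DMRs), with a position and a direction but no value per mouse. Within 10 kb of the gene, 3 of the 10 genes had a DMR, against 20.6% of all tested genes, and Abcg5 and Abcg8 shared 1 of them, so that 2 DMRs were counted. Both were hypermethylated in obese mice and each spanned 2 CpGs. The first, 10 bases long (chr17:84677772-84677781), lies in intron 2 of Abcg5, 5230 bases downstream of its RefSeq start. It also lies in intron 1 of 1 Abcg8 transcript and 5349 bases upstream of the start of the other 3. The second, 5 bases long (chr17:31072161-31072165), lies in intron 2 of Abcg1, 14467 bases downstream of the start. The sequences are shown with 60 bases on either side (GRCm38, plus strand, DMR in capitals) because they are the only DMRs of the list within 10 kb of the 10 genes.
Abcg5 and Abcg8 DMR: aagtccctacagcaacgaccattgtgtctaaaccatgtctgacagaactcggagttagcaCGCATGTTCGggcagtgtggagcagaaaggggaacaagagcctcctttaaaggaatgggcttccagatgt
Abcg1 DMR: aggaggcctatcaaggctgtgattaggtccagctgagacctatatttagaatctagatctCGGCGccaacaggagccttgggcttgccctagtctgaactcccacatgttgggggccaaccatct
For the other 7 genes the nearest DMR was 86.5 to 441 kb from the start site. With all 15 libraries in the fit, edgeR called none of the 3 genes with a DMR in expression, while DESeq2 called Abcg5, as given above.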

How the data were processed

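Reads of stranded mRNA libraries were mapped to mm10 with TopHat2 2.0.4, and the authors deposited raw counts per gene from HTSeq for each mouse. Annotation release and strand setting are not given in the sources used here. The authors mapped bisulfite reads with Bismark and deposited DMR positions and directions for obese against control mice. The amplicon bisulfite table and the authors' DESeq2 tables (log2 fold changes and p-values) were not used. Counts were filtered by filterByExpr, scaled by TMM and fitted by edgeR 4.0.16 (R 4.3.3) over all 15 libraries by group. The fit was tested on simulated data. Log2 CPM used a prior count of 2. Alternatives were DESeq2 1.42.0, other scalings and filters, a GC offset, the compared groups alone, a replicate block and each library left out. Count ratios were compared by exact permutation. No replicate pair was a copy, with a lowest chi-square per degree of freedom of 5.47. Motif searches used RefSeq promoters, which matched 8 of the 10 genes (Abcg1 and Abcc3 not). Motifs were chosen with these promoters in view. Named genes were the 10 transporters, the 3 genes most correlated with each called one, and pathway genes that were called, or the 3 with the smallest p where none was. Other pathway genes in the text (Fgf15, Nr0b2, Nr1i2, Nr1h3 and Nr1h2) and the marker genes named were added with their values known. The transporters and the lists were chosen with earlier results of these data known. Some genes of the lists are not reported here.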

Additional observations from a re-analysis of the deposited data

Results flagged for a closer look

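In obese replicate 5, Fabp6 was at 113.7 CPM, while the other 4 obese mice were at 29.3 to 51.9 CPM. Its gap to the nearest mouse was 0.733 of the range of the group, over the limit of 0.71 for 5 samples (Dixon's test). It was the 1 value past the limit among 30 checks of 10 genes in 3 groups, and chance alone passes about 1 check in 20.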

How the results depend on the processing

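Outside the fits that left out a library, 226 of 237 values kept their direction and their side of the cutoffs, and 1 turned its sign, Abca1 between formerly obese and obese mice, at -0.01 with the GC trend removed. With each library left out, 266 of 300 did. Called transporters numbered 1 to 5 in obese against control mice (2 with all libraries), 1 to 4 in formerly obese against control mice (2) and 0 to 2 in formerly obese against obese mice (1). Sign changes with a library left out occurred in 5 differences that no setting called. With each library left out, the ranges were -0.08 to 0.22 for Abcg1 in formerly obese against control mice and, in formerly obese against obese mice, -0.19 to 0.17 for Npc1l1, -0.08 to 0.16 for Abca1 and -0.08 to 0.11 for Abcg5. The Abcg5 to Abcg8 log2 ratio, obese against control, ran from -0.12 to 0.01. With a cutoff of 0.05 on the adjusted p and none on the fold, 0, 1 and 0 transporters were called in the 3 comparisons, and 16, 282 and 25 of all genes in place of 205, 482 and 343. For formerly obese against obese mice, 3 transporters were called with no filter on low counts (Slc10a2 and Fabp6 beside Abcc3) and 2 with those groups fitted alone (Slc10a2 beside Abcc3). The cause was not tested. With each library left out, all-gene calls ran from 40 (without obese replicate 3) to 331 (without obese replicate 2), from 362 to 660 and from 167 to 400.

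Correlations of deviations between mice of different groups with the same replicate number ran from -0.23 to 0.33, and 5 of 15 were above 0.1. Whether the numbers pair the mice cannot be told from correlations this weak, and the main fit had no replicate block. With the replicate block, 2, 3 and 2 transporters were called in the 3 comparisons, Slc51a being added at 0.46 in formerly obese against control mice and Slc10a2 at 0.61 in formerly obese against obese mice. Counts were lowest for Npc1l1, at 6 to 44 per library, and for Abcg1, at 35 to 97.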
